A study of Mus musculus with 6 samples.

Results

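The 10 genes described here make, conjugate, take up and sense bile acids in the hepatocyte: Cyp7a1, Cyp8b1, Cyp27a1, Cyp7b1, Akr1d1, Hsd3b7, Baat, Slc27a5, Slc10a1 and Fgfr4. They were chosen by gene name among the array's probes that are not controls, and all 10 were found, on 13 of 39429 probes. All 13 probes were well above background on all 6 arrays, so every member passed the filter on dim probes, and the 10 genes are among 19616 features tested.

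The study profiled RNA of the non-tumour part of the liver in 6 male mice of the inbred strain C57BL/6, aged 5 weeks when the diets began. The restricted group (3 mice) ate a diet with moderately restricted carbohydrate, and the control group (3 mice) ate a LabDiet control diet. The sample titles call both diets supplemented, without naming a supplement. Every mouse of both groups was injected through the tail vein, by a rapid large-volume method that carries DNA into liver cells, with a transposon vector encoding human HrasG12V, a hairpin against p53 and GFP4, so no group is a healthy liver. The feeding times are given in conflicting ways, with 1 week before the injection and 5 weeks of diet in the sample labels, but 2 weeks and 4 weeks in the series text. The sample labels write the restricted diet as MCD and the series text as MCDmp. Each mouse was hybridised once, and nothing in the labels says whether mice shared a litter or cage.

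Bile acids are made from cholesterol in the hepatocyte. The classical pathway starts with Cyp7a1, the rate-limiting step, and Cyp8b1 directs it to cholic acid, while the alternative pathway starts with Cyp27a1 on the side chain and uses Cyp7b1. The acids are joined to taurine or glycine, secreted across the canalicular membrane into bile, reabsorbed in the gut and taken up again from blood at the sinusoidal membrane, and a gut hormone that acts on Fgfr4 with its partner Klb restrains synthesis.

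Values below are log2 signals relative to each array's 75th percentile, so 0 is that percentile. Levels of different probes are not comparable with each other. Differences are restricted minus control, and the adjusted p is limma's, Benjamini-Hochberg adjusted over all 19616 features. The 75th percentile signal was 287.4 to 573.6 per array and 23527 to 25816 probes per array were well above background. Arrays of one diet correlated at 0.976 to 0.9884 across features, and arrays of different diets at 0.925 to 0.9474. Restricted mouse 1 shared a slide and a scan with the control mice, and restricted mice 2 and 3 were on another slide, so the difference between restricted mouse 1 and the control mean is the only comparison within a slide.

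For 2 members the array carries a pair of probes that gave different answers, and their sequences are shown because the results for uptake and conjugation turn on them. The Slc10a1 probe at mm9 chr12:82061470-82061529 (minus strand) is annotated to this gene alone, and the one at mm9 chr12:82056539-82056598 (minus strand) is annotated to 4 genes. The Slc27a5 probes lie at mm9 chr7:13573924-13573983 and chr7:13573701-13573760 (minus strand). Whether these positions are coding or untranslated was not annotated here. The single-gene Slc10a1 probe and the unsaturated Slc27a5 probe are printed whole, and of the others the first 30 of 60 bases. Capitals mark the bases that lie in runs of at least 20 bases shared with probes of other genes.
Slc10a1, probe of 1 gene: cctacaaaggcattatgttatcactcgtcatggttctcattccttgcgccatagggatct
Slc10a1, probe of 4 genes: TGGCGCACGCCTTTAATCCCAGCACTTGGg
Slc27a5, unsaturated probe: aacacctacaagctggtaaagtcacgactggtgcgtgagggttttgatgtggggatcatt
Slc27a5, saturated probe: tgtccgggttccagatgcccatggcccagt

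In the 4-gene probe of Slc10a1, 29 of its 60 bases lie in such shared runs, with 3 probes of 3 other genes, and no base of the other 12 member probes does. Only runs of at least 20 bases in probes of this array were searched, so other matches to transcripts were not counted. Those 3 probes measured a median of 0.71 and a highest level of 1.99, and none was saturated. The 4-gene probe was saturated on all 6 arrays, and the saturated Slc27a5 probe on 3 restricted and 2 control arrays, so neither can show a difference of full size. Because the 4-gene probe is annotated to 4 genes, its signal also cannot be assigned to Slc10a1 alone.

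Both enzymes of the classical pathway, 1 of the 2 of the alternative pathway, both shared ring enzymes and Baat rose on the restricted diet. With the brightest probe of each gene, 6 of the 10 members were called higher and 0 lower, against 14.6% of all features called higher and 12.8% called lower (27.5% in either direction). For 7 members every restricted mouse lay above every control mouse, against 26.1% of all features, and for none the reverse held, against 18.8%. The median difference of the 10 was 1.19, against 0.12 over all features. With the unsaturated probe of 1 gene for Slc10a1 and Slc27a5, a choice made after their values were seen, 8 of 10 were called higher, against 14.7% of all features. Within this bulk tissue fewer cells of a type and less RNA per cell cannot be told apart. Of 10 hepatocyte markers none was called in either direction, and 4 were saturated on all 6 arrays. Their summed linear signal over the 75th percentile was 1130 to 1500 in restricted mice and 909 to 1250 in control mice. Macrophage markers were lower in 8 of 8 cases, with a summed level (linear signal over the 75th percentile) of 35.2 to 50.5 in restricted mice and 193 to 263 in control mice. Stellate cell markers were lower in 5 of 7 (45.5 to 73.7 in restricted mice, against 107 to 142 in control mice) and bile duct markers in 3 of 7 (0.913 to 1.92 in restricted mice, against 4.5 to 5.48 in control mice). Of 6 markers of sinusoidal endothelium, 3 were called higher, as most members were, and 0 lower (36.6 to 50.7 in restricted mice, against 20.4 to 31 in control mice). Of the same 6, 1 that was not called lay lower in every restricted mouse than in every control mouse. Of 5 neutrophil markers 3 were called lower and 1 higher (4.54 to 25.5 in restricted mice, against 27.8 to 95.8 in control mice), and of 4 T and NK cell markers tested 2 were called lower (24.3 to 35.8 in restricted mice, against 28.5 to 44.7 in control mice). No marker was called among 2 B cell markers tested. The part of these cell types in the results was not tested.

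**Figure D1:**
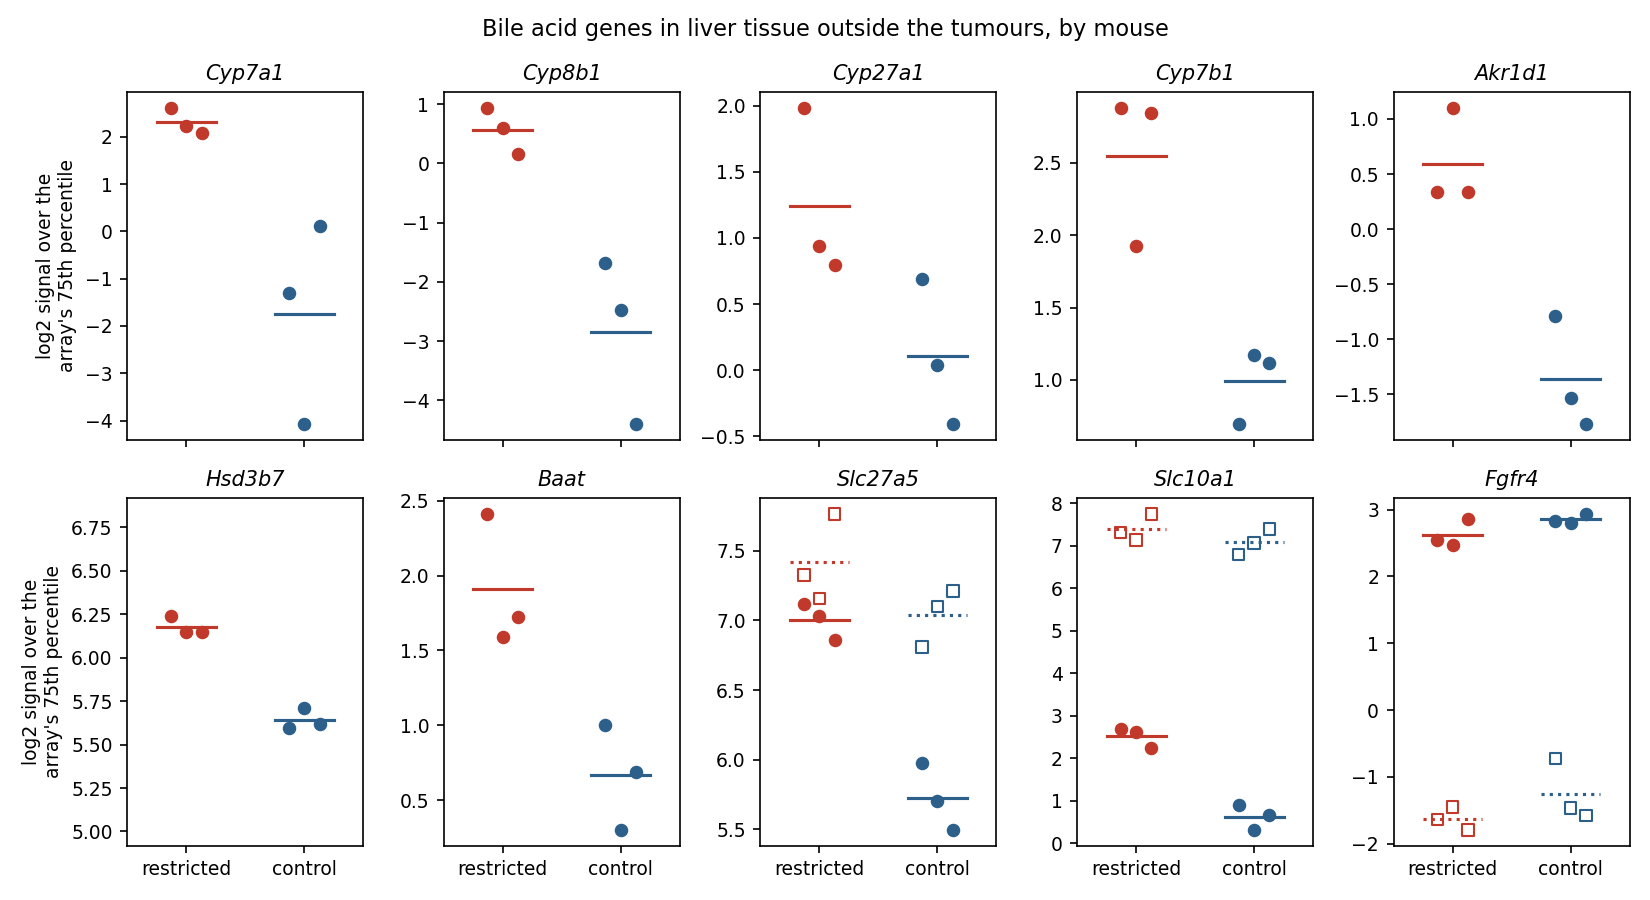
Level of each gene in each mouse (log2 signal over the array's 75th percentile; restricted mice left in red, control mice right in blue, horizontal lines for means). Filled circles are the unsaturated probe, or the brighter probe of Fgfr4, and open squares with dotted lines are the other probe; in Slc10a1 the filled circles separate the diets and the open squares, saturated on all 6 arrays, overlap.

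Cyp7a1, the first and rate-limiting enzyme of the classical pathway, measured 2.61, 2.22 and 2.08 in restricted mice 1 to 3, against -1.30, -4.07 and 0.10 in control mice 1 to 3 (probe at mm9 chr4:6193456-6193515, minus strand). The restricted mice averaged 2.30 ± 0.28 and the control mice -1.75 ± 2.12 (SD, n = 3 each), with control mouse 2 far below the other control mice, and the groups did not overlap. The difference was 4.06 ± 0.94 (SE), which is 16.65-fold, with limma's adjusted p = 0.01946. The call was lost once slide was a block (adjusted p = 0.09398), on slide 1 alone (difference 4.37, adjusted p = 0.1342), and without restricted mouse 1 (adjusted p = 0.05408) or restricted mouse 2 (adjusted p = 0.05482). The difference was 2.90 without control mouse 2 and 4.99 without control mouse 3.

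Cyp8b1, the sterol hydroxylase that sets the share of cholic acid, measured 0.94, 0.60 and 0.16 in restricted mice, against -1.68, -2.48 and -4.40 in control mice (mm9 chr9:121824595-121824654, minus strand). Every restricted mouse was above every control mouse. The difference was 3.42 ± 0.65 (SE), 10.68-fold, with limma's adjusted p = 0.009187. It was 2.64 without control mouse 3, 4.00 without control mouse 1 and 2.31 with normexp background correction, and slide 1 alone gave 3.79 with adjusted p = 0.07141.

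The Cyp8b1 promoter is shown because this gene, with Cyp7a1, had the highest folds of the members, and because it holds the letters of an element known to bind Hnf4a, a regulator of hepatocyte genes. The stretch runs from 120 to 11 bases before the gene's start on the minus strand (RefSeq, GRCm38.p6, chr9:121916316-121916425), with those letters and the letters of a TATA box in capitals.
Cyp8b1 promoter: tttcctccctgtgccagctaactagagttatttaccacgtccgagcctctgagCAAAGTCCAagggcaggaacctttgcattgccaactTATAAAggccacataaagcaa
RefSeq promoter windows were searched for 6 of 10 members (7 windows), over the 250 bases before each start, on both strands. No window was found for Cyp7a1, Cyp7b1, Baat and Slc27a5, so these were not searched. Among the 7 windows searched, the letters CAAAGTCCA occurred in that of Cyp8b1 alone, 67 bases before the start. They occurred in 126 of 32851 windows of all genes (0.384%). TATAAA occurred in the Cyp8b1 window, 31 bases before the start, and in 1 Slc10a1 window, and in 12.368% of all windows. None of the 7 windows searched held CAAGGTCA (1.333% of all) or the inverted repeat bound by the bile acid receptor FXR (0.006% of all). Such a match is a description of the letters, and Hnf4a itself measured a difference of 0.55 (adjusted p = 0.1369).

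Cyp27a1, the mitochondrial enzyme that starts the alternative pathway, measured higher in every restricted mouse than in every control mouse but was not called. It measured 1.98, 0.94 and 0.80 in restricted mice, against 0.69, 0.04 and -0.40 in control mice (mm9 chr1:74782203-74782262, plus strand), a difference of 1.13 ± 0.40 (SE; limma's adjusted p = 0.07706). Restricted mouse 1 was high and on the control slide, and the difference there was 1.87. With the slide as a block it was called (adjusted p = 0.03497), on the same difference of 1.87 from restricted mouse 1. With array weights it was also called (difference 0.93, adjusted p = 0.04642).

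Cyp7b1, the hydroxylase of oxysterols in the alternative pathway, measured 2.88, 1.92 and 2.84 in restricted mice, against 0.70, 1.17 and 1.12 in control mice (mm9 chr3:17972286-17972345, minus strand). Its groups did not overlap, and the difference was 1.56 ± 0.30 (SE), 2.939-fold, with limma's adjusted p = 0.009875. It was called under all 21 alternatives run (adjusted p 0.00496 to 0.03876, differences 1.22 to 1.89).

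Both enzymes of the shared ring steps rose. Akr1d1, which reduces the ring to give bile acids their bent shape, measured 0.34, 1.10 and 0.34 in restricted mice, against -0.79, -1.53 and -1.77 in control mice (mm9 chr6:37518113-37518172, plus strand). The groups did not overlap, and the difference was 1.95 ± 0.33 (SE), 3.877-fold, with limma's adjusted p = 0.005832. With the slide as a block it was 1.70 with adjusted p = 0.06376. Hsd3b7, the dehydrogenase that acts on the ring in both pathways, measured 6.24, 6.15 and 6.15 in restricted mice, against 5.60, 5.71 and 5.62 in control mice (mm9 chr7:134947251-134947310, plus strand). Its difference of 0.54 ± 0.15 (SE; 1.449-fold, limma's adjusted p = 0.03966) is small and the groups did not overlap. Its call ended with quantile normalization (difference 0.23, adjusted p = 0.2497), once slide was a block (adjusted p = 0.1491) and when any 1 mouse was left out (adjusted p 0.06062 to 0.1163).

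Both conjugation enzymes rose by their unsaturated probes. Baat, which joins the activated acid to taurine or glycine, measured 2.41, 1.59 and 1.72 in restricted mice, against 1.00, 0.30 and 0.69 in control mice (mm9 chr4:49502933-49502992, minus strand). The groups did not overlap, and the difference was 1.24 ± 0.29 (SE), 2.368-fold, with limma's adjusted p = 0.01905; without control mouse 2 it was 1.06 with adjusted p = 0.06734. Slc27a5 activates bile acids for Baat. Its unsaturated probe measured 7.12, 7.03 and 6.86 in restricted mice, against 5.98, 5.71 and 5.50 in control mice. The groups did not overlap, and the difference was 1.28 ± 0.19 (SE), 2.424-fold, with adjusted p = 0.003597 in limma's fit on unsaturated probes. Its saturated probe, the brightest, gave 0.38 ± 0.22 (SE; adjusted p = 0.2513), with both diets saturated, so no fold is given.

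Slc10a1 is the sodium-coupled transporter that takes conjugated bile acids up from blood. Its single-gene probe measured 2.68, 2.63 and 2.25 in restricted mice, against 0.90, 0.32 and 0.66 in control mice. All restricted mice were above all control mice, and the difference was 1.89 ± 0.22 (SE), 3.714-fold, with adjusted p = 0.001373 in limma's fit on unsaturated probes. Within slide 1 restricted mouse 1 lay 2.05 above the control mean. The 4-gene probe, saturated throughout, measured 7.30, 7.13 and 7.75 in restricted mice, against 6.79, 7.06 and 7.39 in control mice, with overlap. It gave 0.31 ± 0.24 (SE; adjusted p = 0.377), and -0.027 with quantile normalization; averaging both probes gave 1.10 (adjusted p = 0.003718).

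Fgfr4, the receptor of the gut hormone, was not called. Its brighter probe measured 2.55, 2.46 and 2.85 in restricted mice, against 2.82, 2.80 and 2.94 in control mice (mm9 chr13:55270033-55270092, plus strand), a difference of -0.23 ± 0.18 (SE; limma's adjusted p = 0.3712). Its other probe gave -0.37 ± 0.26 (SE; adjusted p = 0.3353 in the fit on every kept probe). Both overlapped between diets, and the gene was called under none of the 21 alternatives.

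**Figure D2:**
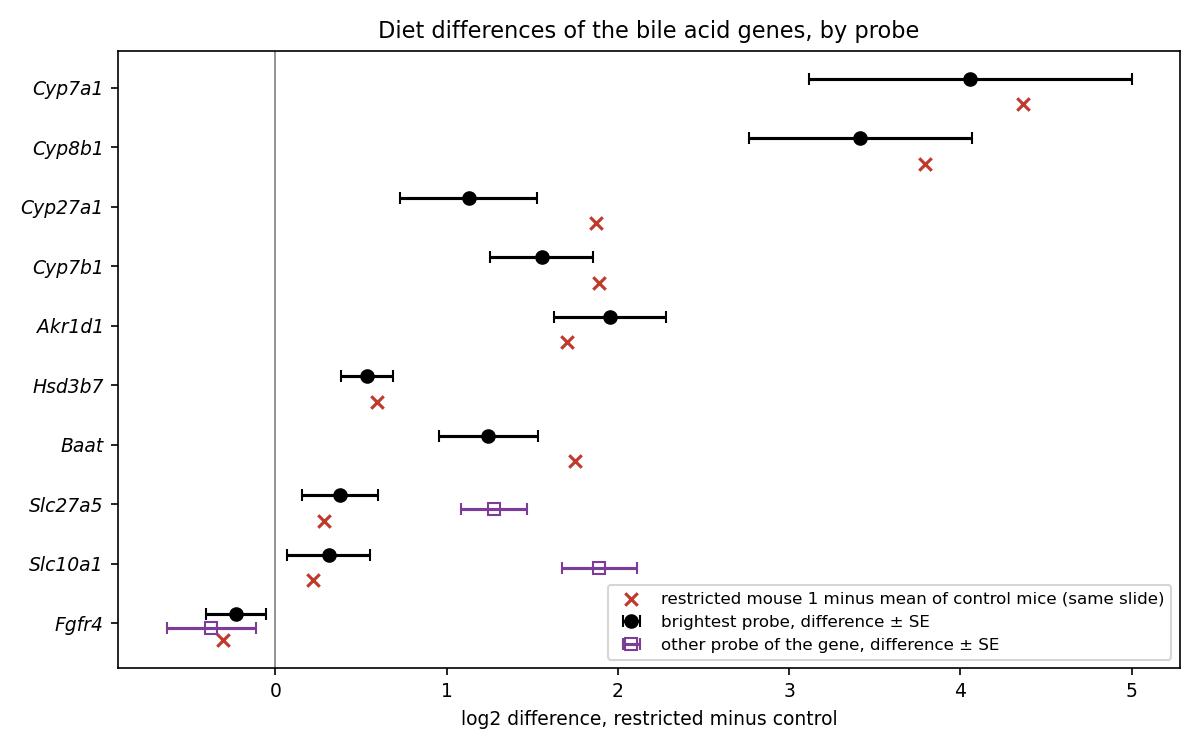
Difference of each gene (x axis, log2, restricted minus control) by the brightest probe (black circles, ± SE) and by the other probe (open squares, ± SE), with restricted mouse 1 minus the mean of the control mice, all on 1 slide, as crosses. For Slc10a1 the single-gene probe gave 1.89 and the brightest probe 0.31, and the crosses for Cyp7a1 (4.37) and Cyp8b1 (3.79) lie to the right of the circles.

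The 2 pathway arms were compared within each mouse by the mean change of 2 enzymes of each arm from the control mean. The classical arm (Cyp7a1 and Cyp8b1) stood at 4.08, 3.71 and 3.42 in restricted mice, against 0.82, -0.97 and 0.16 in control mice. The alternative arm (Cyp27a1 and Cyp7b1) stood at 1.88, 0.88 and 1.27 in restricted mice, against 0.14, 0.05 and -0.20 in control mice. Both arms were higher in every restricted mouse than in every control mouse. Classical minus alternative was 2.20, 2.84 and 2.15 in restricted mice (2.40 ± 0.38, SD), against 0.67, -1.02 and 0.35 in control mice (SD 0.90), without overlap; the enzymes were chosen with results known and no test was made. With normexp background correction, which shrinks differences of dim probes, it was 1.54.

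Whether uptake against export overlapped between diets differed by the probe of Slc10a1. Uptake (Slc10a1, Slco1a1, Slco1a4 and Slco1b2) averaged 1.59 ± 0.30 with the single-gene probe and 1.20 ± 0.39 with the 4-gene probe in restricted mice, relative to control mice. The probe of Slco1b2 was saturated in all 3 restricted mice and no control mouse, so uptake in restricted mice is understated by an unknown amount with either probe of Slc10a1. Export was 0.96 ± 0.08 across the canalicular membrane (Abcb11 and Abcc2) and 0.99 ± 0.34 across the sinusoidal one (Abcc3 and Abcc4). All export is the mean of Abcb11, Abcc2, Abcc3 and Abcc4. Slco2b1 (0.71) and Slc51b (-1.98), described below, were in neither mean. Uptake minus all export was 0.89, 0.35 and 0.61 in restricted mice with the single-gene probe, against -0.06, 0.03 and 0.02 in control mice, without overlap. Its mean of 0.62 fell to 0.30 with normexp background correction. With the 4-gene probe uptake minus all export was 0.43, -0.13 and 0.37 in restricted mice, against -0.20, 0.11 and 0.09 in control mice, with overlap. Its mean of 0.22 turned to -0.056 with normexp background correction. Of the uptake genes Slco1a1 had the largest difference (3.02, and 1.67 with normexp). Slc10a1 by its single-gene probe measured 1.89, Slco1b2 0.94 and Slco1a4 0.52, and uptake without Slco1a1 was not computed.

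**Figure D3:**
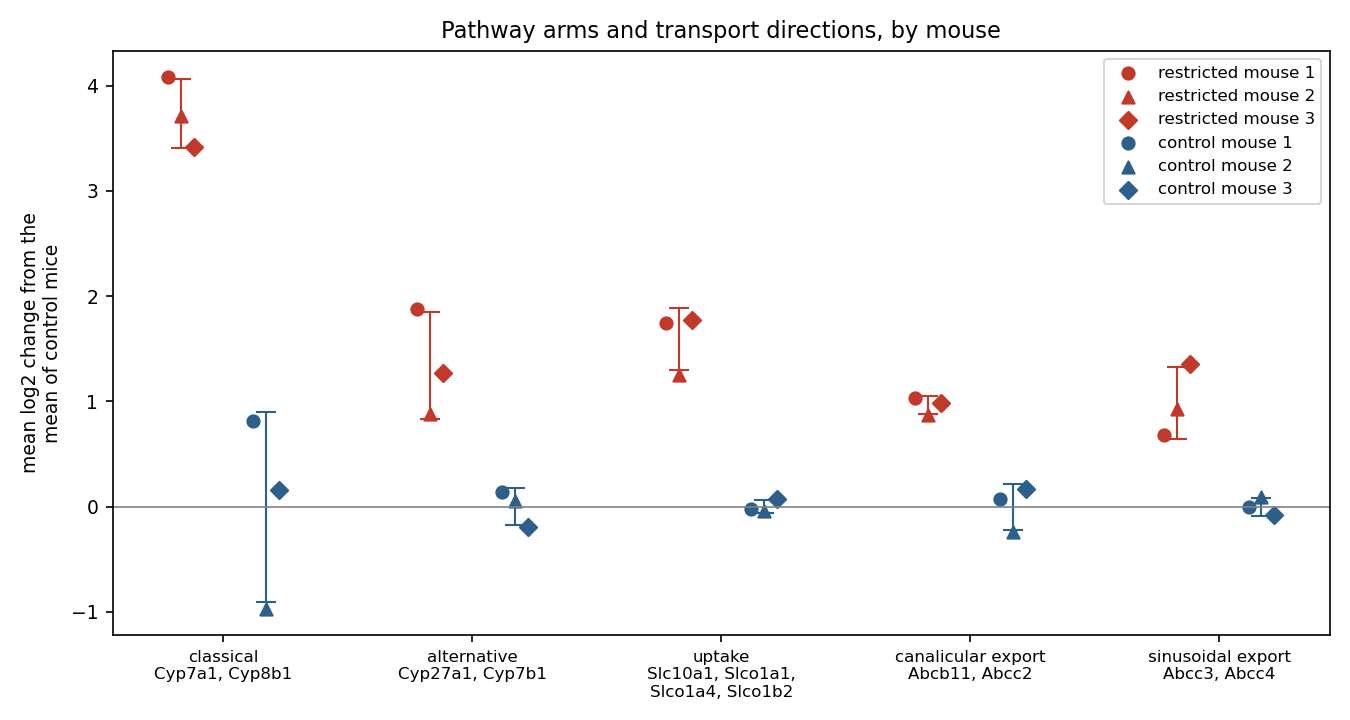
Mean change of each arm or transport direction from the mean of the control mice (y axis, log2), with restricted mice left in red and control mice right in blue, vertical bars ± SD over 3 mice, and Slc10a1 by its single-gene probe. The classical arm lies at 3.42 to 4.08 and the alternative arm at 0.88 to 1.88 in restricted mice.

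Of 5 sinusoidal uptake carriers, Slc10a1 by its 4-gene probe among them, 3 were called higher and 0 lower, against 14.6% and 12.8% of all features, with a median of 0.71 (0.12 over all features). Slco1a1, an organic anion carrier of male mouse liver, measured -0.50, -2.32 and -0.09 in restricted mice, against -4.63, -3.62 and -3.71 in control mice. Its difference was 3.02 ± 0.59 (SE; adjusted p = 0.01029) and its groups did not overlap; it was 3.69 without restricted mouse 2 and 1.67 with normexp background correction. Slco1b2, another anion carrier, was at least 1.912-fold higher (adjusted p = 0.01347), since its probe was saturated in all restricted mice. Slco2b1 rose by 0.71 (adjusted p = 0.02476), and Slco1a4 measured a difference of 0.52 (adjusted p = 0.115). With the slide as a block the calls of Slco1b2 and Slco2b1 were lost, and that of Slco2b1 also without restricted mouse 1, restricted mouse 2 or control mouse 1.

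At the canalicular membrane 4 of 6 genes were called higher and 0 lower, against 14.6% and 12.8% of all features, with a median of 0.96; 2 were called higher with quantile normalization and 1 with slide as a block. Abcb11, the bile salt export pump, measured 5.77, 5.77 and 5.38 in restricted mice, against 4.73, 4.44 and 4.83 in control mice. Its difference was 0.98 ± 0.20 (SE; adjusted p = 0.01217), without overlap. Abcc2, which exports conjugated anions, rose by 0.95 (adjusted p = 0.02073). Both calls ended once slide was a block, while the differences were 1.11 for Abcb11 (adjusted p = 0.05441) and 0.96 for Abcc2 (adjusted p = 0.1199). That of Abcb11 also ended without restricted mouse 2 (adjusted p = 0.05244), and that of Abcc2 without restricted mouse 1 or 3 or control mouse 1 or 2 (adjusted p 0.05459 to 0.07608). Abcg5 and Abcg8, which together form the sterol exporter, rose by 1.25 (adjusted p = 0.007899) and 1.82 (adjusted p = 0.00077), and Abcg5 lost its call once slide was a block (adjusted p = 0.08152). Abcb4, the phospholipid floppase, measured 0.37 (adjusted p = 0.1336) and Atp8b1, a lipid flippase, -0.31 (adjusted p = 0.2837).

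Of 3 tested carriers of sinusoidal export, 1 was called higher and 0 lower, against 14.6% and 12.8% of all features. Abcc4 measured -0.47, -0.16 and 0.46 in restricted mice, against -1.52, -1.21 and -1.75 in control mice, a difference of 1.44 ± 0.28 (SE; adjusted p = 0.01027). With the slide as a block that call was lost (difference 1.02, adjusted p = 0.1129). Abcc3 measured 0.54 (adjusted p = 0.06412). Slc51b, a subunit of the basolateral organic solute transporter, measured -1.98 (adjusted p = 0.1357), with overlap and 2 of 3 restricted mice above background. The other subunit, Slc51a, was not well above background in either diet.

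Of 16 further synthesis and side-chain genes tested, 10 were called higher and 1 lower, against 14.6% and 12.8% of all features, with a median of 1.23. The count called higher was 6 with slide as a block, 5 on slide 1 alone and 7 to 10 without 1 mouse, and the count called lower was 0 to 2 over all alternatives. Abcd3, the peroxisomal carrier of bile acid intermediates, measured 6.43, 6.66 and 6.50 in restricted mice, against 4.14, 4.34 and 3.88 in control mice, and rose by 2.41 ± 0.19 (SE; adjusted p = 0.0003991). Akr1c14, a hydroxysteroid dehydrogenase, rose by 2.51 (adjusted p = 0.001209). Hsd17b4 and Amacr, which take part in the shortening of the side chain in peroxisomes, rose by 1.42 (adjusted p = 0.001259) and 1.28 (adjusted p = 0.00179). Fdx1, the electron donor of mitochondrial P450 enzymes such as Cyp27a1, rose by 1.36 (adjusted p = 0.003566).

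The 1 gene called lower was Ch25h, which makes an oxysterol, and it is named after its values were seen. It was at least 10.2-fold lower, being not well above background in any restricted mouse, against -1.44, -0.31 and -2.98 in control mice. Its probe passed the filter on dim probes through the control mice alone, so the call sets their signal against background. With probes well above background on all arrays, 0 genes of this list were called lower. The macrophage markers given above were lower in the same mice, and their part in this difference was not tested. Cyp2c70, which makes muricholic acids in the mouse, was lower in every restricted mouse (5.82, 4.64 and 4.38, against 6.82, 6.15 and 5.87 in control mice) but was not called (-1.33, adjusted p = 0.05529). Its probe was saturated on 1 control array, so the difference may be understated. Ch25h and Cyp2c70 were the only genes of this list with negative differences. In this list 2 genes were called lower with normexp, quantile normalization, array weights, mouse number as a block, and trend and robust moderation. The same count held without restricted mouse 1.

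Among 18 regulators of bile acid genes 2 were called higher and 0 lower, no larger a share than the 14.6% of all features called higher, with a median of 0.59. The count called higher was 8 without control mouse 3, 1 without restricted mouse 1, restricted mouse 2, control mouse 1 or control mouse 2, 1 with no background filter, 9 with array weights, 4 with median scaling and 0 with slide as a block or on slide 1 alone. Ppara, the receptor for fatty acids, measured 5.44, 5.53 and 5.68 in restricted mice, against 3.70, 3.50 and 4.49 in control mice, and rose by 1.65 ± 0.28 (SE; adjusted p = 0.005584). Nr1h4, the bile acid receptor FXR, measured 4.68, 4.53 and 4.89 in restricted mice, against 2.71, 2.50 and 4.08 in control mice. Its difference of 1.60 (adjusted p = 0.02707) lost its call once slide was a block (adjusted p = 0.1484) and in 5 of the 6 fits without 1 mouse (all but the one without control mouse 3). With the slide as a block Ppara measured 1.54 with adjusted p = 0.05544. Nr0b2, the repressor that FXR induces, measured 1.27 (adjusted p = 0.05183) without overlap. It was called with normexp (adjusted p = 0.04249), quantile normalization (0.04362), median scaling (0.03083), trend and robust moderation (0.04921), array weights (0.007339) and without control mouse 3 (0.01011), and its adjusted p was 0.007339 to 0.1572 over the alternatives. Klb, the partner of Fgfr4, measured 0.95 (adjusted p = 0.09564), and Nr1h3, an oxysterol receptor, 0.62 (adjusted p = 0.1176). Klb was called with array weights (adjusted p = 0.03896) and without restricted mouse 3 (0.03935), and Nr1h3 with array weights (0.02458) and without control mouse 3 (0.02658).

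**Figure D4:**
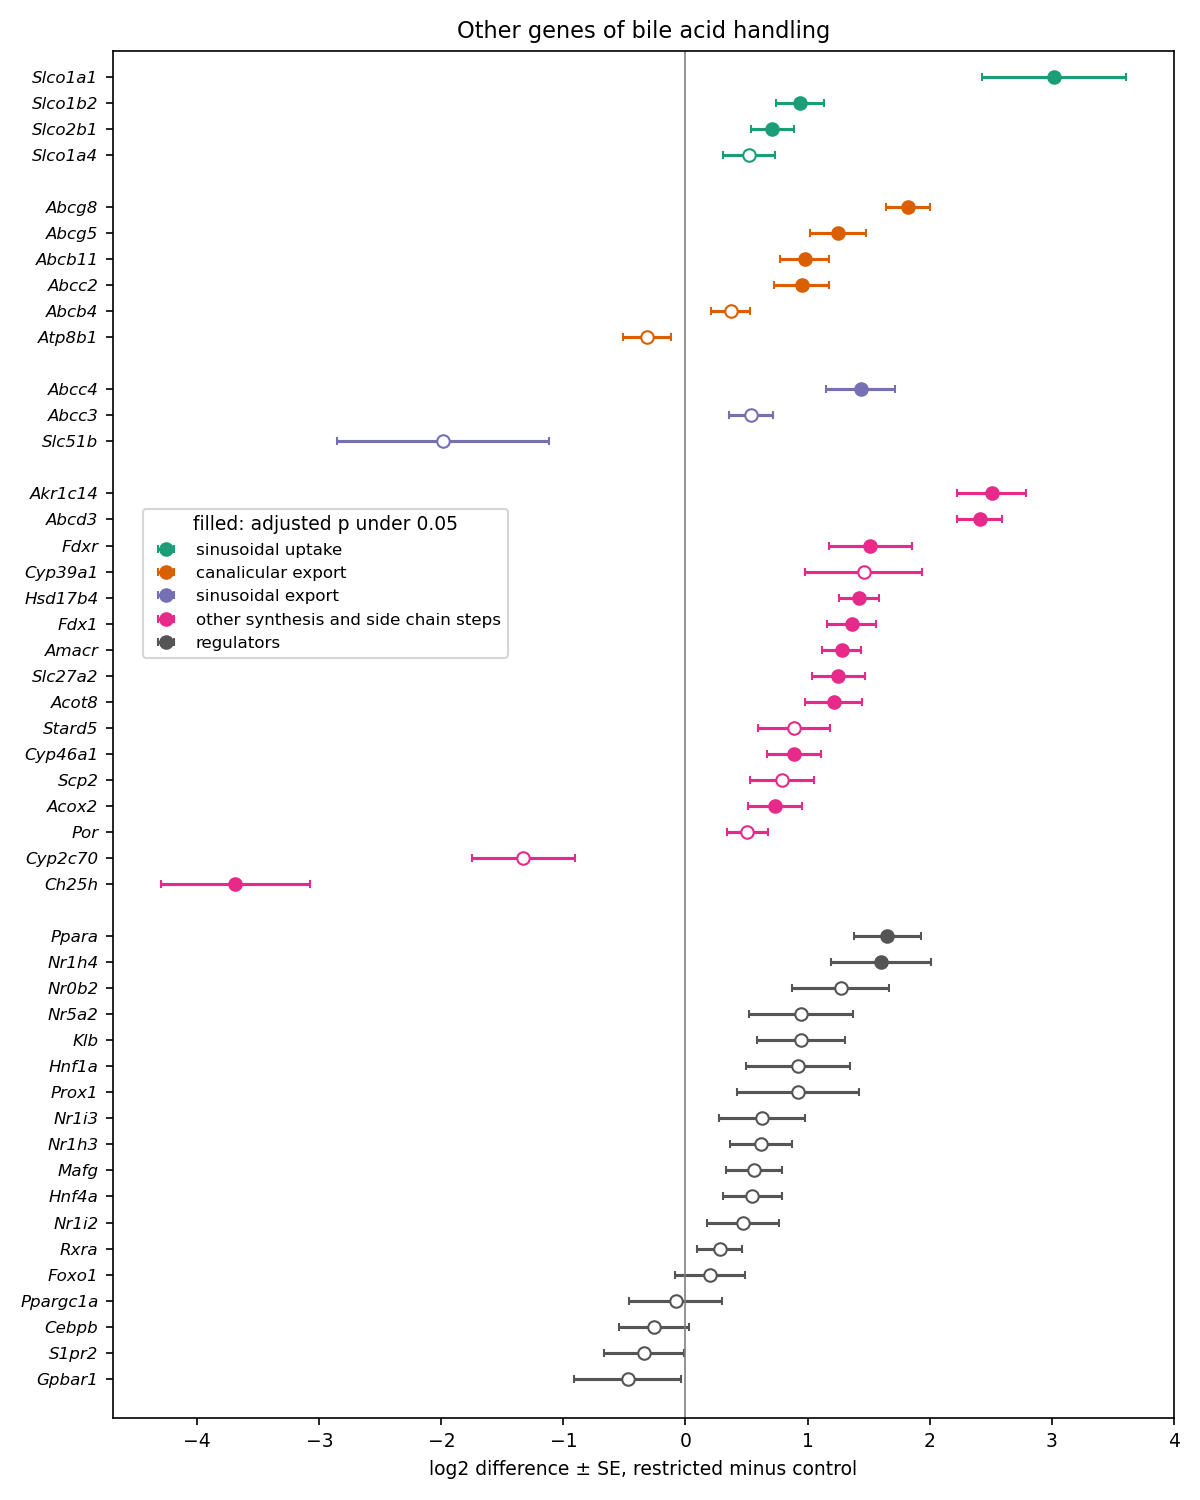
Difference of each further gene of bile acid handling (x axis, log2, restricted minus control, ± SE), by list, with filled points for adjusted p under 0.05. Slco1a1 (3.02), Akr1c14 (2.51) and Abcd3 (2.41) lie far right. Ch25h (-3.69), not well above background in any restricted mouse, lies far left.

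Features were compared in pattern only if they had an ordinary gene symbol (13894 candidates), which leaves out clone and predicted-gene names. Closest to Cyp7a1 over the 6 mice, by root mean square distance after centring each, were Sox18 (0.6716), Tff3 (0.8287) and Tmem25 (0.8888). Sox18 measured -1.95, -2.14 and -3.35 in restricted mice, against -4.93, -7.71 and -4.99 in control mice, and control mouse 2 was the lowest, as it was for Cyp7a1. Sox18 was well above background in only 2 of 3 control mice, so its lowest values and its distance to Cyp7a1 rest partly on signal near background. Closest to Cyp7b1 were Alas2 (0.1533), Gpat4 (0.1823) and Gstp1 (0.1894). Alas2, an enzyme of haem synthesis known from red cell precursors, measured 2.36, 1.58 and 2.59 in restricted mice, against 0.60, 1.08 and 0.96 in control mice, and restricted mouse 2 was the lowest of its group for Cyp7b1 and for Alas2. These distances describe the 6 arrays, which all features share.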

How the data were processed

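Liver RNA of 6 mice was hybridised to 1-colour Agilent arrays, 1 per mouse. The deposited feature files hold the authors' intensity values (processed signals) from Agilent's Feature Extraction software, version 10.7.3.1 per the file headers (detrending on) and 9.3.2.1 per the submitters' processing notes. The separate deposited table equals each probe's averaged intensity to within 0.1% for 99.8% to 99.87% of probes, so it is linear and not centred (column medians 27.52 to 52.12). Outlier spots (127 to 251 of 43020 per array) were dropped, log2 signals were averaged per probe and the 75th percentile of each array was subtracted. Probes were kept if well above background on every array of either diet that measured them (24234 of 39429), and the brightest probe per gene gave 19616 features. Gene names were updated by RefSeq accession (26055 probes matched, 3358 names changed).

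Diets were compared with limma 3.58.1 in R 4.3.3 with Benjamini-Hochberg adjustment over all features, with calls at adjusted p under 0.05. The normexp alternative used an offset of 50. The fit was run on simulated data with independent noise and no slide effect, so that run does not bear on the slides. The members and lists were chosen with earlier results of these data known. Genes named by rule were all members and transporters, Nr1h4, Nr0b2 and Klb, and the 5 smallest p of the other synthesis and regulator lists. The rule also took the 3 features with an ordinary gene symbol nearest in pattern to Cyp7a1 and to Cyp7b1. Ch25h, Cyp2c70 and Hnf4a were added after their values were seen. The probe choice that avoids saturated probes and probes of several genes, alone and together with normexp, was also added after the data were seen. A bound for a probe saturated in one diet alone is the measured ratio. For a dim probe the bound is the brighter diet's mean against a floor on each array, set at the lowest well-above-background signal unless the probe itself was higher.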

Additional observations from a re-analysis of the deposited data

How the results depend on the processing

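The diets were compared again under 21 alternatives. Calls over all features numbered 5386, against 8368 with array weights, 3013 with the slide as a block, 2423 on slide 1 alone and 3362 to 5887 without 1 mouse. Members called numbered 6, against 2 on slide 1 alone and 4 to 5 without 1 mouse; the other handling genes numbered 21, against 34 with array weights, 9 with the slide as a block and 7 on slide 1 alone. Slide 1 alone has 1 restricted mouse, taken to vary like the control mice. With the slide as a block the differences also rest on restricted mouse 1, since no control mouse was on the other slide. With the slide as a block 4 members were called. Cyp8b1, Cyp7b1 and Baat kept their calls there, and Cyp27a1 was called as well. Cyp7a1, Akr1d1 and Hsd3b7 lost theirs. Of called features 53.25% were higher, against 37.21% with the slide as a block, 34.54% on slide 1 alone and 61.17% with median scaling. Classical minus alternative was 1.54 with normexp, alone or with unsaturated single-gene probes. Uptake minus export was -0.056 with normexp, 0.62 without probes of several genes or with unsaturated probes, 0.30 with both unsaturated probes and normexp, and -0.66 for Slc10a1 alone against Abcb11 alone, which uses the 4-gene Slc10a1 probe. Slc10a1 was -0.027 with quantile normalization. The causes were not tested. Correlations of deviations were 0.384, -0.00224 and 0.482 for mice of the same number, and -0.499 to 0.118 for mice of different numbers. The labels do not say that mice of the same number were paired, and the main fit left them unpaired. With the replicate block limma called 7 members and 6623 features, among them Cyp27a1 (adjusted p = 0.007077), Klb (0.008981) and Slc51b (0.0262, lower). The number of arrays and saturation limit the precision.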
